A study of Mus musculus with 8 samples.

Results

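Embryoid bodies given doxycycline (Dox) were compared with embryoid bodies not given it at day 2 of differentiation. The cells derive from mouse embryonic stem cells that the submitters call iTbx6 T-GFP. The 2 arrays titled DoxOn_day2 were set against the 2 arrays titled DoxOFF_day2, so 4 of the 8 arrays of the series enter the comparison itself. The members are gene probes: 23473 are on each array, and 21670 of them passed the filter on dim probes and were tested, while 1803 were left out. The other 4 arrays are DoxOn_day4 and DoxOFF_day4, 2 each, and serve as the later time point of the same contrast. All groups come from the same line, and the labels give no strain and no dose of Dox, and they do not say on which day Dox was added. All groups were grown in SFD, a serum-free medium with no growth factor added, and the dissociation and reaggregation of the embryoid bodies came only after the first 2 days. The labels do not say whether the line is a single clone, or whether the 2 replicates of a group are separate cultures, so the p-values measure the spread between these arrays, which may be technical. No group has Dox without the inducible gene, and effects of Dox itself and of the induced factor therefore cannot be told apart.

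Embryoid bodies are free-floating aggregates in which stem cells leave the pluripotent state and begin to form the germ layers. Tbx6 is a transcription factor of the T-box family, active in the streak and in presomitic mesoderm, and the series was made to study the cardiac mesoderm that it induces. Bone morphogenetic proteins (BMPs) are secreted ligands that act through type I and type II receptor kinases on Smad1, Smad5 and Smad4. In stem cells they switch on the Id genes, whose products bind and block basic helix-loop-helix factors, and in the early mouse embryo they are needed for mesoderm, trophoblast development and the first germ cells. The other large group here is the response to low oxygen, in which the hypoxia-inducible factors raise glucose transporters, glycolytic enzymes and their own negative regulators, the prolyl hydroxylases of the Egln family.

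The start regions of 7 genes on which the results turn are shown first, each as the 250 bases before the annotated start, 5′ to 3′ on the strand of the gene, from the RefSeq table of GRCm38.p6. The first 4 are genes of the low-oxygen response that fell with Dox, and capitals mark the core of the hypoxia response element, ACGTG or GCGTG, on either strand, so that CACGT and CACGC are the same letters on the opposite strand. Adm (adrenomedullin) lies at chr7:110627407-110627656 on the plus strand, Egln3 at chr12:54203875-54204124 on the minus strand, Slc2a1 (the glucose transporter GLUT1) at chr4:119108495-119108744 on the plus strand, and Pgk1 (phosphoglycerate kinase) at chrX:106186850-106187099 on the plus strand.
Adm: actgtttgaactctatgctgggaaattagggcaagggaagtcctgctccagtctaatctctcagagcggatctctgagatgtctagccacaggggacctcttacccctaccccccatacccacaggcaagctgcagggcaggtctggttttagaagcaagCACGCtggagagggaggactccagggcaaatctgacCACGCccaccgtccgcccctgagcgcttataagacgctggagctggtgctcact
Egln3: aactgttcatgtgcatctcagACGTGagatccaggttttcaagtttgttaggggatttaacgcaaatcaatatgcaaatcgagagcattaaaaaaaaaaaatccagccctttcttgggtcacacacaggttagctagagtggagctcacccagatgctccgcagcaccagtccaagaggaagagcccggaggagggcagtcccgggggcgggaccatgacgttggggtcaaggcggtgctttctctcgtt
Slc2a1: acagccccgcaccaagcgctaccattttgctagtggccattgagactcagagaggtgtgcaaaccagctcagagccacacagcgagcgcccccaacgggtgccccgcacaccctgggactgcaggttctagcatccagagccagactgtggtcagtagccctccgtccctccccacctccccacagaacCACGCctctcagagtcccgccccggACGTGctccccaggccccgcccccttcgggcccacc
Pgk1: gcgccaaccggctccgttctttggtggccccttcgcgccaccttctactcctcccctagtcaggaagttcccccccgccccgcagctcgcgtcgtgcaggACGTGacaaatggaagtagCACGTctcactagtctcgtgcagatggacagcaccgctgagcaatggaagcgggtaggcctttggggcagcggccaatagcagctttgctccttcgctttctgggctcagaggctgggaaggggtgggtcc
The next 3 are Id genes that rose with Dox, and capitals mark GGCGCC, a GC-rich element that BMP-activated Smads are known to bind and that reads the same on both strands. Id2 lies at chr12:25096093-25096342 on the minus strand, Id3 at chr4:136143572-136143821 on the plus strand and Id4 at chr13:48260866-48261115 on the plus strand.
Id2: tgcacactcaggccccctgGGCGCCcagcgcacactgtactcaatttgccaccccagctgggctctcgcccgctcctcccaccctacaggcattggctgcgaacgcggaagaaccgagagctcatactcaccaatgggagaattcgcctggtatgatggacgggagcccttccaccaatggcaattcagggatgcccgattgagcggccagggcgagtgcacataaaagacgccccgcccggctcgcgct
Id3: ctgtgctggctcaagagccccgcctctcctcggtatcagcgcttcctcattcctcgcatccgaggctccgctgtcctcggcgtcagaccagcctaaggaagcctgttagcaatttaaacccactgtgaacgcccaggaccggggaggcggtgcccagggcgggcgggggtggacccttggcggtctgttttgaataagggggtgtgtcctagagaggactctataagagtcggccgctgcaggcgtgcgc
Id4: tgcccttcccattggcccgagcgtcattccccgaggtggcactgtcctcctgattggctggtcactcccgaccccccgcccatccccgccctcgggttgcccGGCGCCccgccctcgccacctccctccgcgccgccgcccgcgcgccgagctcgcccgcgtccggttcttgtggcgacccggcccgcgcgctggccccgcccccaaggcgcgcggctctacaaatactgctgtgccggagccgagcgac
Adm, Slc2a1 and Pgk1 hold 2 matches each and Egln3 holds 1. Id2 and Id4 hold 1 match of GGCGCC each, and these letters are not in the window of Id3.

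On the 8 arrays, between 86.0% and 89.2% of the gene probes lay above the mean plus 2 SD of the blank spots. Between 16.7% and 37.5% of the negative control spots also lay above that line, so passing it does not by itself show expression. Across the tested probes the 2 replicates correlated at 0.9945 with Dox and at 0.9931 without Dox at day 2, and the arrays of different day-2 groups at 0.9816 to 0.9846. Values below are log2 intensities after subtraction of the blank spots and quantile normalization, with a floor of 1.04, and a change is the difference of group means with the standard error of the limma fit. The Tbx6 probe gave 5.21 and 5.47 with Dox, against 5.59 and 5.49 without Dox, and its difference did not pass the threshold (log2 change -0.20 ± 0.12, adjusted p = 0.396). T, the Brachyury gene, whose product marks nascent mesoderm, gave 3.41 and 3.57 with Dox, against 3.40 and 3.27 without Dox, a log2 change of 0.16 ± 0.11, adjusted p = 0.454. Neither gene separated the day-2 groups beyond the spread of the fit. The sources used here do not give the position of the Tbx6 probe, so it may not see an inserted copy, and all directions are those of the arrays as labelled.

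At day 2, limma called 2557 probes at an adjusted p under 0.05, which is 11.8% of those tested, with 1204 higher with Dox (5.56%) and 1353 lower (6.24%). Without normalization between arrays the split was 728 higher and 369 lower, and the median of all probes moved by 0.107 on the log2 scale, against -0.01 here. A change of at least 2-fold was found in 761 of the called probes (3.51%), 425 higher (1.96%) and 336 lower (1.55%). Among 15414 named genes, each with 1 probe, 1940 were called (12.6%), 916 higher (5.94%) and 1024 lower (6.64%), and the counts of the gene lists below are read against these last 2 shares. Values of the 2 groups did not overlap for 11404 probes (52.6%), so that the absence of overlap between 2 and 2 arrays carries little information alone. Leaving out 1 array lowered the count of 2557 to 1235 and 1149 without DoxOn_day2 replicate 1 or 2 and to 1322 and 1503 without DoxOFF_day2 replicate 1 or 2. Of the called probes, 449 of those that rose and 434 of those that fell passed in all 8 fits that left out 1 array. When the scanner's second median at each spot was taken as local background, limma called 2 probes at day 2, with 479 at an unadjusted p under 0.05, and 1 of the 110 genes named below as called kept its call. With no background subtracted at all it called 3291, and all 110 kept their calls. The calls thus depend on whether the second median is subtracted. That column correlated with the spot signal at 0.984 to 0.998 over the gene probes of an array.

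**Figure D1:**
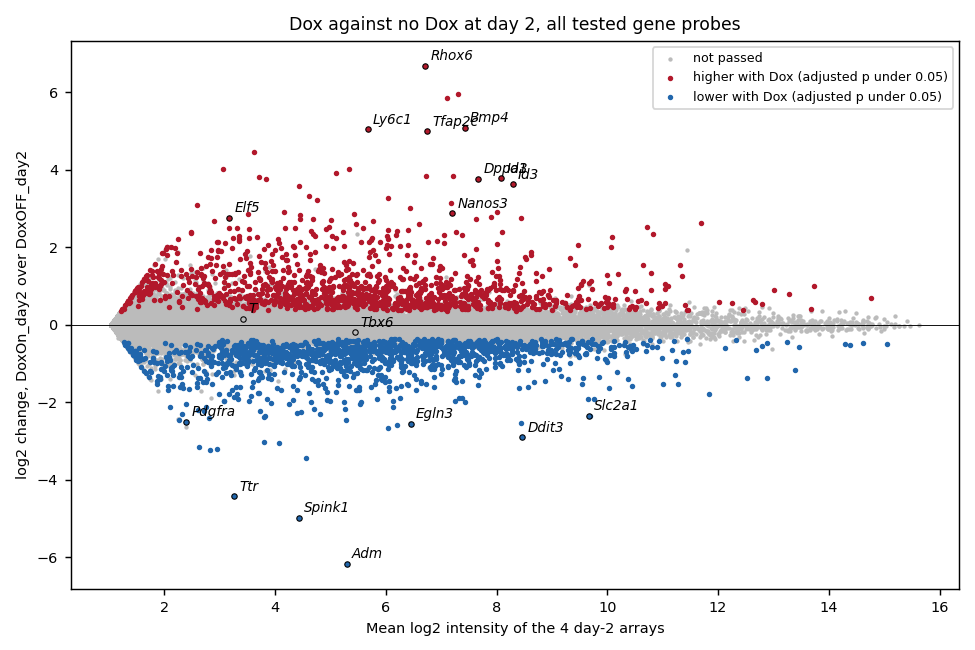
Each point is 1 tested gene probe, with the mean log2 intensity of the 4 day-2 arrays on the horizontal axis and the log2 change of DoxOn_day2 over DoxOFF_day2 on the vertical axis. Red points are the 1204 probes called higher and blue points the 1353 called lower, and circled genes are named in the text. Rhox6 at 6.69 and Adm at -6.17 mark the ends among named genes, while Tbx6 and T lie near 0.

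Among ligands, 2 of 9 tested BMP genes rose and 0 fell. Bmp4 encodes the ligand that signals from extraembryonic ectoderm in the mouse embryo, and its log2 intensity was 10.03 and 9.90 with Dox, against 4.83 and 4.93 without Dox. The groups lay far apart, a 34.0-fold rise (log2 change 5.09 ± 0.10, adjusted p = 8.38e-06). Bmp8b, which acts with Bmp4 in germ cell specification in the mouse, had 4.79 and 5.12 with Dox, against 2.19 and 1.98 without Dox, also without overlap (log2 change 2.87 ± 0.15, adjusted p = 0.000128). For the other ligands the changes were small: Bmp7 had 4.36 and 4.21 with Dox, against 3.93 and 3.77 without Dox (log2 change 0.43 ± 0.12, adjusted p = 0.0591) and Bmp2 had 2.75 and 3.18 with Dox, against 3.42 and 2.90 without Dox (log2 change -0.19 ± 0.20, adjusted p = 0.632).

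Of the 8 tested BMP receptor and Smad genes limma called 0, and at an unadjusted p under 0.05 0 were higher and 0 lower. The type I receptor gene Bmpr1a gave a log2 change of 0.18 ± 0.09, the type II receptor gene Acvr2a of 0.34 ± 0.29, Smad1 of 0.20 ± 0.10, Smad5 of -0.06 ± 0.14 and Smad4, the common partner, of -0.11 ± 0.11, all on the log2 scale. The median of the 8 was 0.03. The extracellular BMP antagonist genes Nog (-0.01) and Chrd (0.07) were not called either.

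Of 19 tested BMP target and feedback genes, 10 rose and 0 fell, and 16 had a positive change, with a median of 0.85. Id1 had 10 and 9.94 with Dox, against 6.10 and 6.27 without Dox, a 13.8-fold rise (log2 change 3.78 ± 0.16, adjusted p = 9.69e-05). Id3 had 10.12 and 10.08 with Dox, against 6.44 and 6.52 without Dox (3.62 ± 0.10, adjusted p = 1.91e-05). In both genes the arrays of a group differed by less than 0.2, and the groups by over 3, on the log2 scale. Id4 had 6.24 and 6.49 with Dox, against 3.998 and 3.34 without Dox (2.69 ± 0.22, adjusted p = 0.000762), and Id2 had 9.59 and 9.53 with Dox, against 7.68 and 7.68 without Dox (1.88 ± 0.12, adjusted p = 0.000256). All 4 Id genes thus rose. Smad7, the inhibitory Smad induced by its own pathway, had 7.38 and 7.45 with Dox, against 5.79 and 5.45 without Dox (1.80 ± 0.16, adjusted p = 0.00109), while the inhibitory Smad6 gene had 5.64 and 5.69 with Dox, against 5.99 and 5.77 without Dox (-0.21 ± 0.11, adjusted p = 0.292) and the pseudoreceptor gene Bambi had 7.07 and 6.83 with Dox, against 6.70 and 6.91 without Dox (0.15 ± 0.13, adjusted p = 0.55). Among homeobox and GATA targets, Msx1 rose by 1.26 ± 0.15, adjusted p = 0.00321, Msx2 by 1.57 ± 0.20, adjusted p = 0.00408 and Gata2 by 1.27 ± 0.10, adjusted p = 0.000597. The count of 10 was 8 or 9 in each of the 8 fits that left out 1 array, 8 members passed in all of them, and the call on Msx2 was lost when only the 4 day-2 arrays were fitted (adjusted p = 0.0569).

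The promoter table holds 7 of the 10 BMP targets that rose, and 4 of the 7 have GGCGCC in the 250 bases before a start, against 17.0% of the 12345 named genes tested that have a window there and 10.85% of all 27025 genes of the promoter table. The median GC content of the windows was 67.6% for these targets and 58.0% for the tested genes. AGGTGT, the core letters of the site of T-box factors, is in 0 of the 7, against 12.7% of the tested genes. Among the 29 genes of the low-oxygen response that fell and have a window, GGCGCC is in 9 (31.0%) and AGGTGT in 7 (24.1%), Slc2a1 among these 7. Both shares are above those of the tested genes. These are descriptions of letters in a short window, and no letters in the window say nothing of binding elsewhere.

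The naive pluripotent state is the ground state of stem cells before they resemble the implanted epiblast. Of 19 tested genes of this state 9 rose with Dox at day 2, 1 fell and 9 did not pass, with a median change of 0.49. The summed linear intensity of 5 pluripotent stem cell markers, of which 2 rose, was 21340 and 21390 with Dox, against 21340 and 19520 without Dox. Most of it was Dppa5a, with 15390 on each Dox array, against 19890 and 17930 without Dox. Pou5f1 and Sox2 were also chosen as markers but were not among the genes tested, so the sum does not cover them. Dppa3, which encodes the maternal and germ cell factor Stella, had 9.52 and 9.59 with Dox, against 5.58 and 6.0 without Dox, a 13.6-fold rise (3.77 ± 0.16, adjusted p = 9.69e-05). Zfp42, which encodes the stem cell zinc finger protein Rex1, had 12.01 and 11.94 with Dox, against 9.41 and 9.51 without Dox (2.51 ± 0.11, adjusted p = 9.69e-05). The nuclear receptor genes moved the same way: Nr5a2 had 7.43 and 7.38 with Dox, against 4.88 and 5.08 without Dox (2.42 ± 0.10, adjusted p = 9.69e-05), and Nr0b1 had 9.63 and 9.71 with Dox, against 8.24 and 8.23 without Dox (1.43 ± 0.09, adjusted p = 0.000331). Nanog, a core homeobox factor gene, had 10.76 and 10.95 with Dox, against 9.44 and 9.63 without Dox (1.32 ± 0.18, adjusted p = 0.0052), and Fbxo15 had 10.31 and 10.08 with Dox, against 8.72 and 8.59 without Dox (1.54 ± 0.14, adjusted p = 0.00105). Other factor genes of the same state were not called: Klf4 gave a log2 change of 0.49 ± 0.14, adjusted p = 0.0682 and Esrrb of 0.27 ± 0.18, adjusted p = 0.438. In the separate list of general pluripotency genes 4 of 10 rose and 0 fell, and 1 of the 4, Dnmt3l, which encodes the cofactor of the de novo DNA methyltransferases, passed in all 8 fits without 1 array (9.44 and 9.61 with Dox, against 7.79 and 7.64 without Dox; 1.81 ± 0.11, adjusted p = 0.000241). Without any 1 of the 4 day-2 arrays that count was 1, and the single fall in the naive list ended without either DoxOn_day2 array, DoxOFF_day2 replicate 2 or either DoxOFF_day4 array.

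Germ cell genes went in both directions. Of 19 tested members of the germ cell and meiosis list, 5 rose and 4 fell, with a median of -0.02. Rhox6, of the reproductive homeobox cluster on the X chromosome, was at 10.06 and 10.06 with Dox, against 3.63 and 3.11 without Dox, the largest rise among named genes at 103.2-fold (6.69 ± 0.25, adjusted p = 7.05e-05). Tfap2c, a factor gene of trophoblast and primordial germ cells, had 9.25 and 9.23 with Dox, against 4.01 and 4.48 without Dox (4.99 ± 0.17, adjusted p = 4.31e-05). Nanos3, which primordial germ cells need to survive in the mouse, had 8.65 and 8.62 with Dox, against 5.56 and 5.96 without Dox (2.88 ± 0.18, adjusted p = 0.000293). With these 3 and Dppa3, 4 rises passed in every fit without 1 array. The early specifier gene Prdm14 was not called (0.41 ± 0.29, adjusted p = 0.452), and Ddx4, a marker of later germ cells, gave a log2 change of -0.04 ± 0.11, adjusted p = 0.88. Genes of meiosis and of the later germ line make up the falls. Stra8, induced by retinoic acid at meiotic entry, had 2.68 and 2.39 with Dox, against 5.45 and 5.73 without Dox (-3.05 ± 0.14, adjusted p = 9.91e-05), and Mael, of the piRNA pathway, had 5.85 and 5.56 with Dox, against 7.44 and 7.36 without Dox (-1.70 ± 0.16, adjusted p = 0.00139). Smc1b, a meiotic cohesin gene that is in no list but among the 25 largest falls, had 3.64 and 3.59 with Dox, against 5.72 and 5.87 without Dox (-2.18 ± 0.16, adjusted p = 0.000453). Of the 4 falls in the list, Stra8 and Mael passed without any 1 of the 4 day-2 arrays, and the count was 2 in each of those fits. Rhox6 belongs to a family of similar genes, and whether the probe separates the copies was not tested.

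Of 15 tested trophoblast genes 6 rose with Dox, 0 fell and 9 did not pass, with a median change of 0.52, and all 15 changes were positive. Elf5, a factor gene of trophoblast stem cells, had 4.61 and 4.49 with Dox, against 1.56 and 2.001 without Dox (2.77 ± 0.17, adjusted p = 0.000245). Tead4, which acts at the start of the trophoblast lineage in the mouse, had 4.32 and 4.09 with Dox, against 3.16 and 3.02 without Dox (1.11 ± 0.14, adjusted p = 0.00442), and Gata2 had 2.90 and 2.98 with Dox, against 1.72 and 1.64 without Dox. Other factor genes of the lineage did not pass: Cdx2 gave a log2 change of 0.15 ± 0.10, adjusted p = 0.419, Eomes of 0.29 ± 0.11, adjusted p = 0.152 and Hand1 of 0.24 ± 0.23, adjusted p = 0.609. The list shares Tfap2c with the germ cell genes and Gata2 with the BMP targets. The summed linear intensity of 7 trophoblast markers, of which 4 rose and 0 fell, was 944.9 and 959.5 with Dox, against 275.6 and 263.9 without Dox. Of the 7, 0 were at background in either group by the line drawn from the blank spots. Tfap2c made most of that difference, with 607.2 and 599.7 with Dox, against 16.1 and 22.4 without Dox. The other 6 markers summed to 337.7 and 359.8 with Dox, against 259.5 and 241.5 without Dox. In surface ectoderm, 1 of 11 members rose, Grhl3, an epidermal factor gene, with 4.62 and 4.37 with Dox, against 1.96 and 2.44 without Dox (2.30 ± 0.20, adjusted p = 0.000886), and its relative Grhl2 gave a log2 change of 0.10 ± 0.30, adjusted p = 0.895. In bulk arrays, more cells of a type and more RNA per cell cannot be told apart, here and in every group below.

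**Figure D2:**
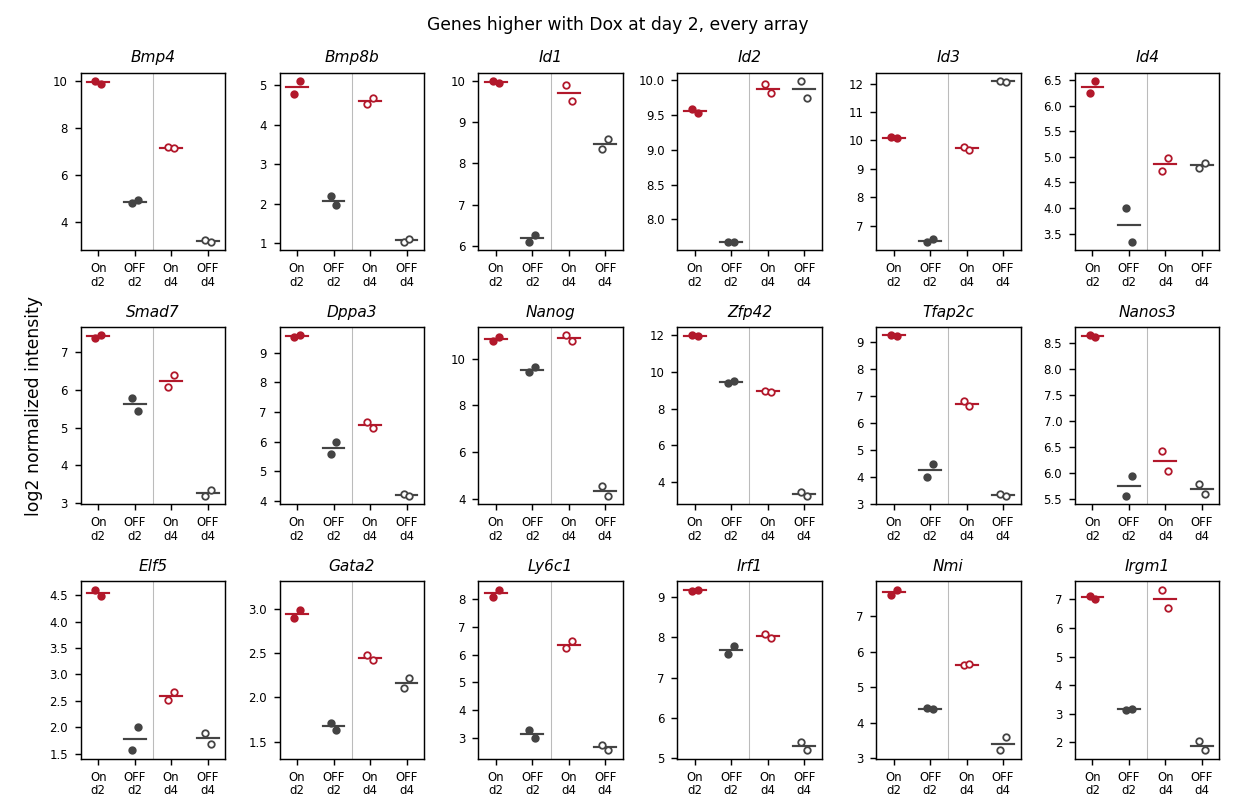
Each panel plots the log2 normalized intensity of 1 gene on all 8 arrays, with DoxOn (red) left of DoxOFF (grey) at day 2 (filled) and at day 4 (open), and a line at each group mean. At day 2 both Dox arrays lie above both arrays without Dox in all 18 panels. At day 4 the order is the opposite for Id3, and Id2 and Id4 lie at similar levels in both groups.

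Interferon-inducible and antigen presentation genes rose in 10 of 19 tested cases and fell in 1, with a median of 0.46. Ly6c1, a membrane-anchored surface antigen gene, had 8.06 and 8.34 with Dox, against 3.29 and 3.002 without Dox, a 33.1-fold rise (5.05 ± 0.17, adjusted p = 4.31e-05). Irgm1, a GTPase gene of cell-autonomous defence, had 7.13 and 7.004 with Dox, against 3.14 and 3.15 without Dox (3.92 ± 0.22, adjusted p = 0.000178), and Oas1a, an antiviral enzyme gene, had 6.82 and 6.70 with Dox, against 4.09 and 4.23 without Dox (2.60 ± 0.18, adjusted p = 0.000369). The membrane protein gene Ifitm1 had 12.01 and 12.01 with Dox, against 9.69 and 9.62 without Dox (2.35 ± 0.09, adjusted p = 7.87e-05), and the regulator gene Irf1 had 9.15 and 9.19 with Dox, against 7.58 and 7.79 without Dox (1.49 ± 0.12, adjusted p = 0.00073). Not every such gene followed. Nmi, an interferon-induced partner of STAT proteins that is no member of the list, had 7.59 and 7.75 with Dox, against 4.40 and 4.39 without Dox (3.28 ± 0.14, adjusted p = 9.69e-05), whereas Irf7 gave a log2 change of -0.19 ± 0.20, adjusted p = 0.644 and Psmb9 of -0.43 ± 0.11, adjusted p = 0.06, and Ifit1 stayed close to the floor in both groups, with 1.12 and 1.27 with Dox, against 1.499 and 1.47 without Dox. B2m, the light chain of MHC class I, had 6.82 and 6.60 with Dox, against 7.62 and 7.48 without Dox (-0.84 ± 0.13, adjusted p = 0.00789). The count of rises was 6 without DoxOn_day2 replicate 1 and up to 9 without another array, and the fall of B2m ended without DoxOn_day2 replicate 2 (adjusted p = 0.0545) and without DoxOFF_day2 replicate 1 (adjusted p = 0.0532). Ly6c1, Oas1a and Ifitm1 have near-identical relatives, and cross-hybridization was not tested.

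Several of the 25 largest rises belong to none of these groups. Genes of cell contact and cell surface include Gjb5, a gap junction gene (8.77 and 8.51 with Dox, against 4.44 and 5.17 without Dox; 3.84 ± 0.26, adjusted p = 0.000355), Jam2, a junctional adhesion gene (6.16 and 6.31 with Dox, against 2.88 and 2.41 without Dox; 3.59 ± 0.19, adjusted p = 0.000141), Cd55, an inhibitor of complement (5.93 and 5.79 with Dox, against 3.04 and 3.02 without Dox; 2.82 ± 0.17, adjusted p = 0.000236), and Mep1b, a membrane metalloprotease gene (2.87 ± 0.09). The tetraspanin gene Cd37 was at 5.04 and 5.08 with Dox, against 1.04 and 1.04 without Dox, where both values are the floor. With that floor its level was at least 15.4-fold higher with Dox (adjusted p = 8.38e-06). In the same way BC053393 was at least 8.15-fold higher (adjusted p = 9.69e-05). Such bounds set the bright group against the lowest signal above background in the dim one, and they move with the chosen floor. Cd37 passed the filter on dim probes only through the DoxOn_day2 arrays. Its values in all other groups are the floor and have no spread, so its p-value rests on the spread of that pair and is weak support. BC053393 passed the filter only through the Dox arrays of both days. All its values without Dox are the floor, so its p-value rests on the spread of the Dox arrays and is also weak support. H19, an imprinted long noncoding RNA, had 8.75 and 8.76 with Dox, against 5.62 and 5.60 without Dox (3.15 ± 0.14, adjusted p = 9.69e-05), the calcium-binding protein gene S100a6 had 9.09 and 9.19 with Dox, against 5.41 and 5.20 without Dox (3.83 ± 0.11, adjusted p = 3.23e-05), and Spic, an ETS-family factor gene, had 5.73 and 5.70 with Dox, against 2.16 and 1.73 without Dox (3.77 ± 0.25, adjusted p = 0.000311). Cited1, a transcriptional coregulator gene that is also in the presomitic list, had 9.65 and 9.30 with Dox, against 6.32 and 6.80 without Dox (2.92 ± 0.19, adjusted p = 0.000302). The remaining 3 are Mylpf, a myosin light chain gene (2.79 ± 0.11), Cpsf4l (4.03 ± 0.17) and 3830417A13Rik (4.46 ± 0.15). The highest adjusted p among the 25 was 0.000355, and no call among them ended when any 1 array was left out. With the floor at 4 blank SDs in place of 2, the fitted changes of 3830417A13Rik, Cd37 and BC053393 were 3.815, 3.02 and 2.10. All 3 kept their calls.

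Most tested genes of glucose uptake and glycolysis fell with Dox at day 2. Of 23 members 14 fell and 1 rose, 22 had a negative change, and the median was -0.58. Slc2a1, whose start region is shown above, had 8.51 and 8.47 with Dox, against 10.90 and 10.77 without Dox (-2.35 ± 0.10, adjusted p = 9.69e-05). Slc16a3, an exporter of lactate, had 9.48 and 8.97 with Dox, against 10.86 and 10.84 without Dox (-1.62 ± 0.20, adjusted p = 0.00388). Pfkfb3, which makes the activator of phosphofructokinase, had 4.13 and 4.01 with Dox, against 5.78 and 5.86 without Dox (-1.74 ± 0.10, adjusted p = 0.000178), and the phosphofructokinase gene Pfkl had 6.68 and 6.61 with Dox, against 8.16 and 8.04 without Dox (-1.46 ± 0.11, adjusted p = 0.000494). In each of these the values of the groups were more than 1 log2 unit apart. The aldolase gene Aldoc had 7.76 and 7.75 with Dox, against 9.37 and 9.37 without Dox (-1.61 ± 0.09, adjusted p = 0.000199), and the more abundant Aldoa had 12.19 and 12.22 with Dox, against 13.60 and 13.55 without Dox (-1.37 ± 0.09, adjusted p = 0.000293). Tpi1, triose phosphate isomerase, had 10.49 and 10.52 with Dox, against 12.03 and 12.04 without Dox (-1.53 ± 0.09, adjusted p = 0.000235), and Pgk1, which is often used as an internal control, had 11.86 and 11.79 with Dox, against 13.19 and 13.23 without Dox (-1.38 ± 0.10, adjusted p = 0.000503). Members that did not pass include enzymes at both ends of the pathway: Hk2 gave a log2 change of -0.43 ± 0.14, adjusted p = 0.109, Ldha of -0.61 ± 0.22, adjusted p = 0.133, the pyruvate dehydrogenase kinase gene Pdk1 of -0.16 ± 0.10, adjusted p = 0.416 and Gapdh of -0.30 ± 0.13, adjusted p = 0.223. Hk1 was the 1 member that rose (0.69 ± 0.12, adjusted p = 0.0118), a call that ended without either DoxOn_day2 array and without DoxOFF_day2 replicate 1 (adjusted p up to 0.0776). Of the 14 falls 9 passed in every fit without 1 array, and the count was 9 without DoxOn_day2 replicate 2 or DoxOFF_day2 replicate 2.

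Glycogen enzymes fell in 2 of 8 cases. Pgm2, a phosphoglucomutase gene, had 7.20 and 7.13 with Dox, against 9.74 and 9.67 without Dox (-2.54 ± 0.15, adjusted p = 0.000247), and the glycogen synthase gene Gys1 gave a log2 change of -0.22 ± 0.11, adjusted p = 0.284. Without DoxOn_day2 replicate 1 or without either DoxOFF_day2 array the count was 1.

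Among the genes of the oxygen-sensing pathway 2 of 11 fell, and both are prolyl hydroxylases that mark the hypoxia-inducible factor for degradation and are themselves its targets. Egln3 had 5.30 and 5.04 with Dox, against 7.502 and 7.94 without Dox (-2.55 ± 0.28, adjusted p = 0.00254), and Egln1 had 5.18 and 4.96 with Dox, against 7.22 and 7.17 without Dox (-2.13 ± 0.13, adjusted p = 0.000243). The third hydroxylase gene, Egln2, gave a log2 change of 0.03 ± 0.13, adjusted p = 0.926. Hif1a, the factor subunit itself, had 7.46 and 7.48 with Dox, against 7.32 and 7.31 without Dox (0.15 ± 0.09, adjusted p = 0.383), its relative Epas1 gave a log2 change of 0.22 ± 0.23, adjusted p = 0.627, and Vhl, the ubiquitin ligase subunit, of -0.20 ± 0.13, adjusted p = 0.41. Both Dox arrays lay below both arrays without Dox for the 2 hydroxylases that fell, whereas the arrays lay close together for the factor.

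Other genes known to respond to low oxygen fell in 14 of 26 cases and rose in 0, with a median of -0.69 and 23 negative changes. Adm, a vasoactive peptide gene, was 71.9-fold lower with Dox, the largest fall of any named gene, with 2.57 and 1.85 with Dox, against 8.24 and 8.51 without Dox (-6.17 ± 0.29, adjusted p = 9.69e-05). Loxl2, a lysyl oxidase that crosslinks matrix, had 2.45 and 2.14 with Dox, against 5.24 and 5.41 without Dox (-3.03 ± 0.14, adjusted p = 9.69e-05). Bhlhe40, a basic helix-loop-helix repressor gene, had 4.60 and 4.81 with Dox, against 7.47 and 7.27 without Dox (-2.66 ± 0.12, adjusted p = 9.69e-05). The groups did not overlap in any of the 3. Ddit4, an inhibitor of mTORC1 signalling, had 9.11 and 8.51 with Dox, against 10.77 and 10.68 without Dox (-1.92 ± 0.19, adjusted p = 0.00168). The collagen prolyl hydroxylase gene P4ha2 had 4.64 and 4.63 with Dox, against 6.39 and 6.27 without Dox (-1.69 ± 0.10, adjusted p = 0.000222), and Ero1a, of oxidative protein folding, had 6.03 and 5.75 with Dox, against 7.32 and 7.48 without Dox (-1.51 ± 0.18, adjusted p = 0.00295). Vegfa, the angiogenic growth factor gene, had 3.05 and 3.02 with Dox, against 4.04 and 4.36 without Dox (-1.17 ± 0.16, adjusted p = 0.00616), which did not pass when DoxOn_day2 replicate 2 was left out (adjusted p = 0.05). Car9, the carbonic anhydrase gene often used as a hypoxia marker, did not follow (3.75 and 3.67 with Dox, against 4.29 and 3.64 without Dox; -0.26 ± 0.23, adjusted p = 0.561). Of the 14 falls 11 passed in every fit without 1 array.

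Together the 4 lists of this response hold 68 tested genes, of which 32 fell, 1 rose and 55 had a negative change, with a median of -0.44. The promoter table holds 29 of the 32 that fell, and 25 of these (86.2%) have ACGTG or GCGTG on either strand in the 250 bases before a start. The share was 54.4% among the 12345 named genes tested that have a window, 61.6% among all 814 named genes with a window that fell, 54.9% among the 714 that rose, and 41.5% among all 27025 genes of the promoter table. The median GC content was 64.6% in the windows of these 29 genes and 58.0% in those of the 12345 tested genes, and its part in the shares was not tested.

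Genes of 2 stress responses were read beside these. Of 26 tested genes of the ATF4 and amino acid response 11 fell, 0 rose and 15 did not pass, with a median of -0.39. Ddit3, which encodes the stress factor CHOP, had 7.02 and 6.98 with Dox, against 9.86 and 9.97 without Dox (-2.91 ± 0.13, adjusted p = 9.69e-05). Nupr1, a stress-induced chromatin protein gene, had 7.72 and 7.48 with Dox, against 9.30 and 9.16 without Dox (-1.63 ± 0.13, adjusted p = 0.000638), and the lipoprotein receptor gene Vldlr had 4.83 and 5.01 with Dox, against 6.58 and 6.497 without Dox (-1.62 ± 0.18, adjusted p = 0.00229). The transcript of the factor itself did not differ beyond its spread: Atf4 had 11.08 and 11.12 with Dox, against 11.12 and 11.20 without Dox (-0.06 ± 0.10, adjusted p = 0.796), and the asparagine synthetase gene Asns, a well-known target, gave a log2 change of 0.27 ± 0.20, adjusted p = 0.484. Of the 11 falls 5 passed in all 8 fits without 1 array, and the count was 5 without DoxOn_day2 replicate 2. Among 16 heat shock and unfolded protein genes 4 rose and 1 fell. Hspb1, a small heat shock protein gene, had 11.61 and 11.58 with Dox, against 10.61 and 10.59 without Dox (0.99 ± 0.12, adjusted p = 0.00319), Hspa8, the constitutive Hsp70 chaperone gene, had 14.32 and 14.13 with Dox, against 13.10 and 13.36 without Dox (0.99 ± 0.15, adjusted p = 0.00724), and Hspa5, the chaperone of the endoplasmic reticulum, gave a log2 change of -0.02 ± 0.16, adjusted p = 0.968. The call on Hspa8 ended without DoxOn_day2 replicate 1 (adjusted p = 0.0545), where 1 of the 4 rises remained.

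Genes of primitive and visceral endoderm, the extraembryonic layer that surrounds the epiblast and secretes carrier proteins, fell in 11 of 28 cases and rose in 1, with a median of -0.58. Ttr, a carrier of thyroid hormone and retinol, was at 1.04 and 1.04 with Dox, against 5.44 and 5.48 without Dox. Both Dox arrays were at the floor, and with that floor Ttr was at least 21.4-fold lower with Dox (adjusted p = 1.1e-05). Apoa1, an apolipoprotein gene, was at 1.04 and 1.04 with Dox, against 3.71 and 4.69 without Dox. With the same floor it was at least 8.91-fold lower (adjusted p = 0.00102). With the floor at 4 blank SDs the fitted changes were -3.419 for Ttr and -2.155 for Apoa1. Apoa1 passed the filter on dim probes only through the DoxOFF_day2 arrays. All its other values are the floor, so its p-value rests on the spread of that pair. Ttr passed the filter only through the arrays without Dox of both days. Its Dox values are all the floor, so the p-value of Ttr rests on the spread of the arrays without Dox. Spink1, a trypsin inhibitor gene, had 1.71 and 2.17 with Dox, against 7.03 and 6.82 without Dox (-4.99 ± 0.20, adjusted p = 8.52e-05). The 3 secreted products were well above the floor in both arrays without Dox and at or near it in both Dox arrays. Dab2, an endocytic adaptor gene, had 2.24 and 1.13 with Dox, against 3.73 and 3.89 without Dox (-2.12 ± 0.33, adjusted p = 0.00846), and Clic6 had 1.99 and 2.04 with Dox, against 3.68 and 3.32 without Dox (-1.49 ± 0.17, adjusted p = 0.00279). Gata6, the factor gene that starts the lineage, had 3.98 and 4.13 with Dox, against 5.50 and 5.46 without Dox (-1.42 ± 0.21, adjusted p = 0.00686). The rest of the lineage did not move in 1 direction. Amn, of the endocytic receptor amnionless, rose, with 5.65 and 5.46 with Dox, against 4.49 and 4.62 without Dox (0.997 ± 0.12, adjusted p = 0.00299), and Apob (0.10 ± 0.21, adjusted p = 0.834), Apoe (-0.32 ± 0.10, adjusted p = 0.0876), Gata4 (0.07 ± 0.18, adjusted p = 0.875) and Hnf4a (-0.58 ± 0.27, adjusted p = 0.249) were not called. The summed linear intensity of 9 markers of this cell type, of which 5 fell and 1 rose, was 98.68 and 88.3 with Dox, against 164.5 and 181.5 without Dox, with Ttr and Apoa1 at background in the Dox group. The call on Dab2 ended without DoxOFF_day2 replicate 2 (adjusted p = 0.054) and that on Gata6 without DoxOn_day2 replicate 1 (adjusted p = 0.0558), and the count of 11 was 6 without DoxOn_day2 replicate 2 or DoxOFF_day2 replicate 2. Pyy, a gut peptide hormone gene of the definitive endoderm list, had 1.04 and 1.38 with Dox, against 4.42 and 4.49 without Dox (-3.24 ± 0.20, adjusted p = 0.000272). Its fitted change was -2.41 with the floor at 4 blank SDs.

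Among the 25 largest falls, several genes belong to no list. Izumo1r, which encodes a folate receptor family member, had 1.04 and 1.68 with Dox, against 4.55 and 4.56 without Dox (-3.20 ± 0.19, adjusted p = 0.000245). With the floor at 4 blank SDs its fitted change was -2.52. Catsperz, of the sperm calcium channel, had 4.94 and 4.85 with Dox, against 7.55 and 7.43 without Dox (-2.60 ± 0.12, adjusted p = 9.91e-05), and A2m, a plasma protease inhibitor gene, had 1.99 and 1.22 with Dox, against 3.95 and 4.06 without Dox (-2.40 ± 0.31, adjusted p = 0.00449). Csn3, the kappa casein gene, fell by 2.46 ± 0.17 on the log2 scale (adjusted p = 0.000357), and 1700003F12Rik by 2.23 ± 0.21 on the log2 scale (adjusted p = 0.00139). Tfec, an MiT-family factor gene, was at 1.04 and 1.04 with Dox, against 3.55 and 3.46 without Dox. With that floor it was at least 5.50-fold lower with Dox (adjusted p = 6.94e-05). Its fitted change was -1.46 with the floor at 4 blank SDs. Like Apoa1, Tfec passed the filter on dim probes only through the DoxOFF_day2 arrays, and its other values are all the floor. Cox8c, an isoform of a cytochrome oxidase subunit gene, had 1.97 and 1.04 with Dox, against 3.50 and 3.91 without Dox (-2.20 ± 0.29, adjusted p = 0.00481), a call that ended in the 4 day-2 arrays alone (adjusted p = 0.0733).

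**Figure D3:**
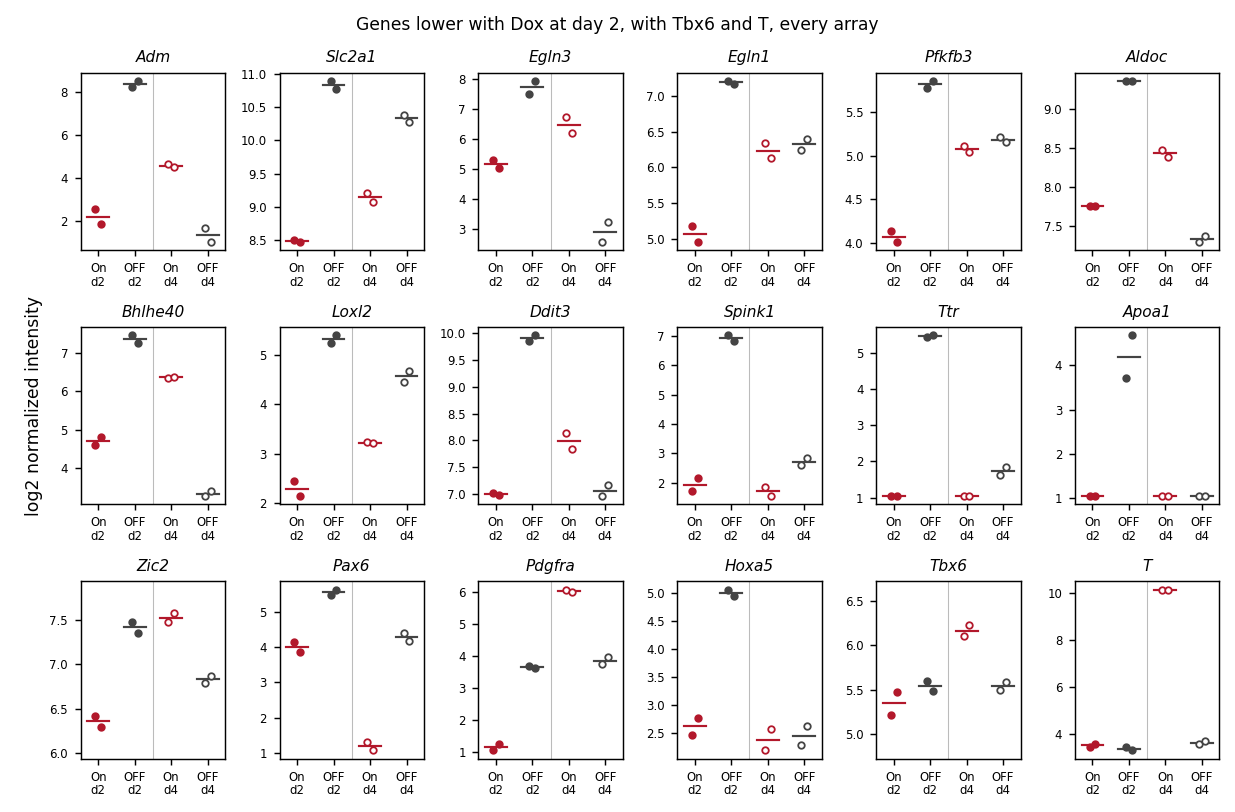
Each panel plots the log2 normalized intensity of 1 gene on all 8 arrays, with DoxOn (red) left of DoxOFF (grey) at day 2 (filled) and at day 4 (open), and a line at each group mean. In the first 16 panels both Dox arrays lie below both arrays without Dox at day 2. Tbx6 and T, in the last 2 panels, change by -0.20 and 0.16 at day 2.

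Some epiblast and neural genes fell with Dox, and none rose. Of 13 tested genes of the formative and primed epiblast, the state that follows naive pluripotency, 6 fell and 0 rose, with a median of -0.46. Zic2 had 6.42 and 6.297 with Dox, against 7.48 and 7.36 without Dox (-1.06 ± 0.10, adjusted p = 0.00149), and its neighbour in the genome, Zic5, had 5.99 and 5.91 with Dox, against 6.90 and 6.99 without Dox (-0.997 ± 0.09, adjusted p = 0.00114). Sox11 had 4.73 and 4.54 with Dox, against 5.62 and 5.46 without Dox (-0.90 ± 0.12, adjusted p = 0.00545). The classical marker genes Fgf5 (6.15 and 6.28 with Dox, against 6.48 and 6.59 without Dox; -0.32 ± 0.11, adjusted p = 0.128) and Otx2 (9.94 and 9.93 with Dox, against 9.72 and 9.77 without Dox; 0.19 ± 0.10, adjusted p = 0.311) were not called. The count of 6 was 3 without either DoxOFF_day2 array. Of 22 neural genes 5 fell and 0 rose, and 17 changes were negative, with a median of -0.32. Fabp7, a fatty acid binding protein gene of radial glia, had 4.67 and 4.69 with Dox, against 6.35 and 6.38 without Dox (-1.69 ± 0.11, adjusted p = 0.000311). Pax6, a factor gene of eye and forebrain, had 4.15 and 3.85 with Dox, against 5.47 and 5.62 without Dox (-1.55 ± 0.16, adjusted p = 0.00171), and Ptn, a neurite growth factor gene, had 5.13 and 5.11 with Dox, against 6.47 and 6.61 without Dox (-1.42 ± 0.11, adjusted p = 0.000657). The neuronal genes Camk2n1 (2.36 and 2.94 with Dox, against 5.09 and 4.90 without Dox; -2.35 ± 0.23, adjusted p = 0.00141) and Nsg2 (3.69 and 3.62 with Dox, against 5.88 and 6.03 without Dox; -2.30 ± 0.20, adjusted p = 0.00102) were among the 25 largest falls and in none of the lists. The summed linear intensity of 4 neural progenitor markers was 189.0 and 208.1 with Dox, against 359.6 and 337.4 without Dox. The call on Sox11 ended without normalization between arrays (adjusted p = 0.0555).

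No gene of the streak and cardiac mesoderm lists rose at day 2. Of 19 primitive streak and nascent mesoderm genes 0 rose and 4 fell, with a median of -0.03, by limma, and without DoxOn_day2 replicate 1 none fell. At an unadjusted p under 0.05, 2 had higher and 4 lower values. Mesp1, the earliest factor gene of cardiac mesoderm, had 2.31 and 2.02 with Dox, against 1.88 and 1.64 without Dox (0.41 ± 0.14, adjusted p = 0.124), and Mixl1, a streak homeobox gene, had 2.79 and 2.92 with Dox, against 2.67 and 2.57 without Dox (0.23 ± 0.20, adjusted p = 0.542). Both were near background in both groups. Of 15 cardiac and lateral plate mesoderm genes 0 rose and 3 fell. Pdgfra, a growth factor receptor gene of primitive endoderm and early mesoderm, had 1.04 and 1.25 with Dox, against 3.67 and 3.63 without Dox (-2.50 ± 0.12, adjusted p = 0.000106), and Wt1 had 3.71 and 3.82 with Dox, against 5.09 and 5.16 without Dox (-1.36 ± 0.09, adjusted p = 0.000394). With the floor at 4 blank SDs the fitted change of Pdgfra was -1.61. The second receptor gene by which cardiac mesoderm is sorted, Kdr, had 4.80 and 4.83 with Dox, against 4.40 and 4.61 without Dox (0.31 ± 0.14, adjusted p = 0.221). In the presomitic list 2 of 17 rose and 1 fell. The Notch ligand genes moved apart: Dll1 had 4.41 and 4.44 with Dox, against 5.97 and 5.71 without Dox (-1.42 ± 0.13, adjusted p = 0.00112), and Dll3 had 6.62 and 6.69 with Dox, against 5.65 and 5.55 without Dox (1.05 ± 0.11, adjusted p = 0.00172). Hoxa5, a homeobox gene of the trunk, had 2.47 and 2.75 with Dox, against 5.06 and 4.94 without Dox (-2.39 ± 0.18, adjusted p = 0.000582). The summed intensity of 6 streak and mesoderm markers was 83.42 and 86.48 with Dox, against 81.98 and 79.51 without Dox.

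In the list of epithelial junctions and keratins the genes that passed all fell, and matrix genes moved both ways. The junction genes Gjb5 and Jam2, which rose, are not in that list. Of 20 genes of epithelial junctions and keratins 8 fell and 0 rose, and 18 changes were negative, with a median of -0.32. Crb3, of the apical polarity complex, had 6.32 and 6.18 with Dox, against 7.34 and 7.33 without Dox (-1.09 ± 0.12, adjusted p = 0.00246) and was the 1 member that passed in every fit without 1 array, and the count of 8 was 1 without DoxOn_day2 replicate 2. Cldn7, a tight junction gene, had 6.89 and 6.87 with Dox, against 7.70 and 7.48 without Dox (-0.71 ± 0.11, adjusted p = 0.008), a call that ended in that fit (adjusted p = 0.0545). In the matrix list 3 of 17 rose and 3 fell, with 1 fall left without DoxOn_day2 replicate 1. The basement membrane gene Nid2 had 8.89 and 9.03 with Dox, against 7.86 and 7.71 without Dox (1.18 ± 0.11, adjusted p = 0.00136), and the collagen IV gene Col4a2 had 3.39 and 3.15 with Dox, against 4.51 and 4.35 without Dox (-1.16 ± 0.12, adjusted p = 0.00206). The matrix protease gene Mmp2 had 4.64 and 4.54 with Dox, against 5.98 and 5.80 without Dox (-1.30 ± 0.12, adjusted p = 0.00103). Dcn, a small proteoglycan gene that marks fibroblasts, had 3.25 and 3.25 with Dox, against 5.44 and 5.62 without Dox (-2.28 ± 0.14, adjusted p = 0.000271), while Col1a1 (0.02 ± 0.16, adjusted p = 0.964) and Col1a2 (-0.31 ± 0.33, adjusted p = 0.634) were not called. The summed intensity of 7 fibroblast markers was 123.7 and 140.7 with Dox, against 206.2 and 191.6 without Dox. The adhesion gene Pecam1, of endothelium and also of stem cells, had 6.54 and 6.47 with Dox, against 5.58 and 5.43 without Dox (1.001 ± 0.13, adjusted p = 0.00411).

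In 4 other signalling pathways the share of members called was lowest for Nodal and highest for Notch, beside 12.6% of all named genes. No call in the Nodal, Wnt or FGF and ERK lists passed in all 8 fits that left out 1 array. In the Notch list 1 rise and 2 falls did, so the order of the lists is only a description. Of 12 Nodal genes 1 rose, the proprotein convertase gene Pcsk6 (4.05 and 3.82 with Dox, against 1.74 and 2.25 without Dox; 1.94 ± 0.29, adjusted p = 0.00733), and its call ended without DoxOn_day2 replicate 1 (adjusted p = 0.0593). In the Wnt list 0 of 24 rose and 3 fell, or 1 without DoxOn_day2 replicate 2 or DoxOFF_day2 replicate 1, with the secreted inhibitor gene Sfrp2 at 5.66 and 5.83 with Dox, against 6.95 and 6.74 without Dox (-1.10 ± 0.16, adjusted p = 0.00626), which did not pass when DoxOn_day2 replicate 1 was left out (adjusted p = 0.0516). The Notch list had 3 rises and 2 falls among 15, or 1 rise without either DoxOn_day2 array, and the target gene Hes1 was among the falls (5.63 and 5.31 with Dox, against 6.48 and 6.77 without Dox; -1.15 ± 0.16, adjusted p = 0.00616). In the FGF and ERK list 2 of 23 rose and 3 fell, and none of these 5 calls passed in all 8 fits without 1 array.

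In the lists of DNA replication, mitosis and oxidative phosphorylation no call passed in all 8 fits that left out 1 array. Their counts stand beside 12.6% of all named genes called. Of 24 DNA replication genes limma called 0, with 5 higher and 2 lower at an unadjusted p under 0.05 and a median of 0.05. Among 23 mitosis genes 4 rose and 0 fell, 20 changes were positive and the median was 0.23, but none of the 4 calls passed in all 8 fits without 1 array, and without any 1 of the 4 day-2 arrays the count was 0. Oxidative phosphorylation had a median of -0.02 over 25 subunit genes with 1 fall, which ended without DoxOn_day2 replicate 1 or DoxOFF_day2 replicate 1, beside the median of -0.58 over the glycolysis genes. The apoptosis gene Pmaip1, a target of p53 and ATF4, had 6.31 and 6.41 with Dox, against 7.65 and 7.62 without Dox (-1.27 ± 0.10, adjusted p = 0.000537), while Cdkn1a, the cell cycle inhibitor gene most used as a p53 readout, gave a log2 change of 0.11 ± 0.13, adjusted p = 0.673. Common internal controls were not all stable: of 11 tested 4 fell, Pgk1 and B2m among them, or 2 without either DoxOn_day2 array or DoxOFF_day2 replicate 1, and 1 rose. This is Actb, with 13.68 and 13.25 with Dox, against 12.59 and 12.53 without Dox (0.90 ± 0.16, adjusted p = 0.013), which did not pass when either DoxOFF_day2 array was left out (adjusted p up to 0.069) and in the 4 day-2 arrays alone, and a dimmer probe of the gene gave 0.07 ± 0.17.

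**Figure D4:**
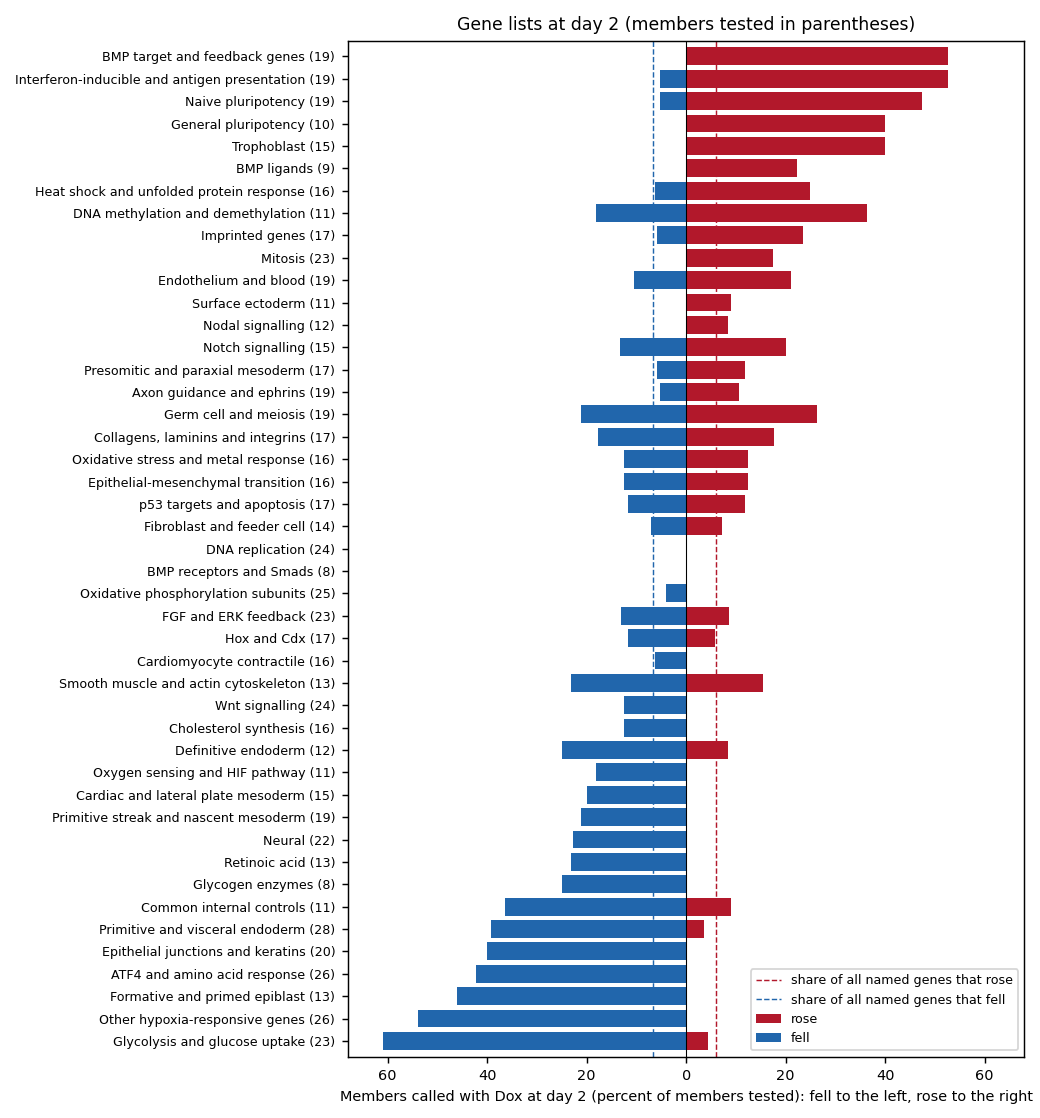
Each row is a gene list with at least 8 tested members, and bars give the percent of its members called lower (blue, to the left) and higher (red, to the right) with Dox at day 2. Dashed lines mark the shares of all named genes, 6.64% lower and 5.94% higher. BMP targets, interferon-inducible and naive pluripotency genes extend to the right, and glycolysis, other hypoxia-responsive and epiblast genes to the left.

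The same contrast was then measured at day 4, on 4 other arrays, so the 2 comparisons share no control array, though 1 fit gives both their spread. At day 4, 6484 probes were called (29.9%), 3117 higher (14.4%) and 3367 lower (15.5%), and the difference between the effects of the 2 days passed for 4796 probes (22.1%). Of the 1204 probes that rose at day 2, 528 also rose at day 4 (43.9%), 192 fell (15.9%) and 484 did not pass (40.2%). Of the 1353 that fell at day 2, 430 also fell at day 4 (31.8%), 414 rose (30.6%) and 509 did not pass (37.6%). The difference between the days passed for 723 of the rises (60%) and 898 of the falls (66.4%). Probes that fell at day 2 were thus called higher at day 4 in 30.6% of cases and lower in 31.8%, beside 14.4% and 15.5% of all tested probes.

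**Figure D5:**
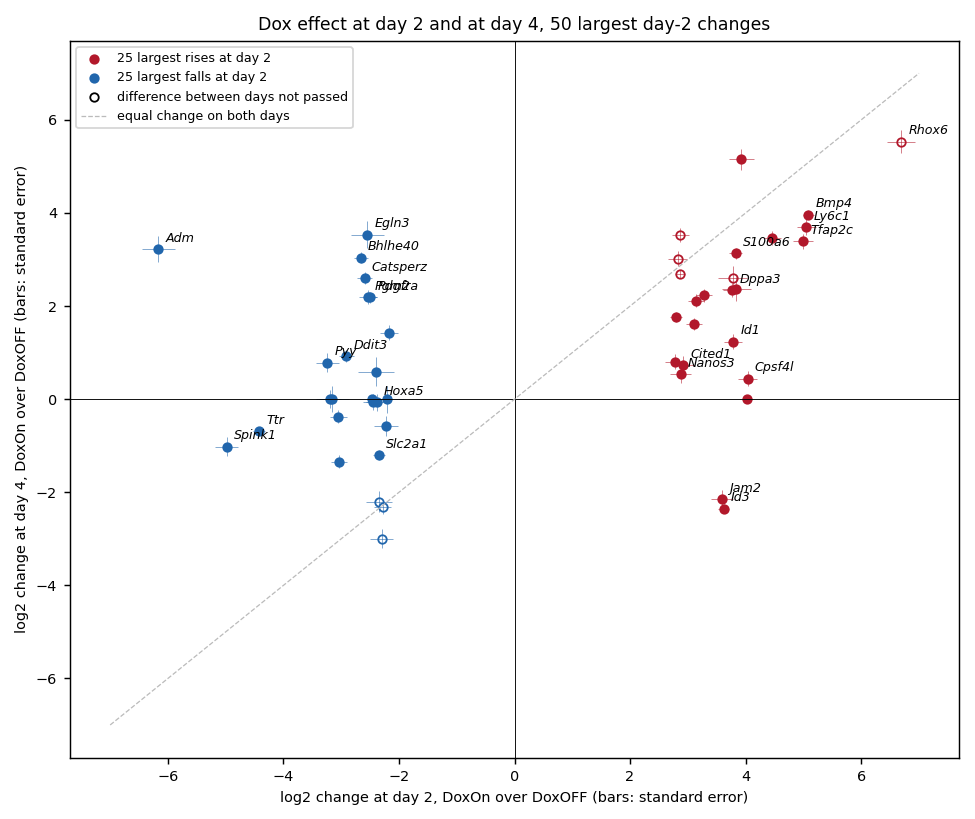
The log2 change of DoxOn over DoxOFF at day 2 (horizontal axis) and day 4 (vertical axis) is plotted for the 25 largest rises (red) and 25 largest falls (blue) at day 2, with standard errors as bars. Open points are those for which the difference between the days did not pass, and the dashed line marks equal change. Adm, Egln3 and Bhlhe40 lie at the upper left, lower at day 2 and higher at day 4, and Id3 and Jam2 lie at the lower right.

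Genes of the day-2 response differed in what they did at day 4. A rise or a fall there is again Dox against no Dox on the same day, not a change over time. Bmp4 was still higher at day 4, with 7.19 and 7.15 with Dox, against 3.25 and 3.16 without Dox (3.96 ± 0.10, adjusted p = 1.26e-06), and the effect was larger at day 2 by 1.12 ± 0.14, adjusted p = 0.00185. Id3, by contrast, had 9.78 and 9.67 with Dox, against 12.10 and 12.06 without Dox at day 4, a fall (-2.35 ± 0.10, adjusted p = 7.29e-06), so that the difference between the days was 5.98 ± 0.13, adjusted p = 4.17e-06. From day 2 to day 4 Id3 moved by 5.60 without Dox and by -0.38 with Dox. Id2 had 9.94 and 9.81 with Dox, against 9.99 and 9.74 without Dox at day 4 (0.01 ± 0.12, adjusted p = 0.987), and Id1 kept a smaller rise (1.24 ± 0.16, adjusted p = 0.00141). Among the naive genes, Nanog (6.55 at day 4), Zfp42 (5.61) and Nr0b1 (5.43) differed more at day 4 than at day 2 on the log2 scale, and the difference passed for all 3 (adjusted p = 3.39e-05, 4.33e-05 and 9.53e-06). From day 2 to day 4 these 3 moved by -5.201, -6.139 and -7.175 without Dox, and by 0.04, -3.04 and -3.173 with Dox. Nr0b1 was not above background on either day-4 array without Dox, so its fitted values that use that group depend on the floor. With that floor it was at least 37.4-fold higher with Dox at day 4.

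Several low-oxygen genes that were lower with Dox at day 2 were higher with Dox at day 4. Adm had 4.66 and 4.50 with Dox, against 1.66 and 1.04 without Dox at day 4 (3.23 ± 0.29, adjusted p = 0.000253), and the difference between the days was -9.39 ± 0.40, adjusted p = 2.32e-05. Egln3 had 6.73 and 6.19 with Dox, against 2.59 and 3.25 without Dox (3.54 ± 0.28, adjusted p = 0.00016; difference -6.09 ± 0.40, adjusted p = 0.000124). Bhlhe40 had 6.35 and 6.38 with Dox, against 3.26 and 3.39 without Dox (3.04 ± 0.12, adjusted p = 7.1e-06; difference -5.70 ± 0.17, adjusted p = 7.3e-06), and Aldoc had 8.48 and 8.39 with Dox, against 7.29 and 7.37 without Dox (1.10 ± 0.09, adjusted p = 0.000188; difference -2.72 ± 0.13, adjusted p = 3.38e-05). In each of these the Dox group was the higher one at day 4 and the lower one at day 2. From day 2 to day 4, Adm, Egln3 and Bhlhe40 moved by -7.02, -4.80 and -4.04 without Dox. With Dox they moved by 2.37, 1.29 and 1.66, so the larger change over time was in the group without Dox. Of the 23 glycolysis genes 11 rose and 3 fell at day 4, with a median of 0.31, and the difference between the days passed for 17. Slc2a1 was an exception, lower with Dox on both days (-1.19 ± 0.10, adjusted p = 0.000236 at day 4). Of the 26 ATF4 genes 24 rose at day 4, with a median of 1.40, and the difference passed for 23. T rose at day 4, with 10.17 and 10.15 with Dox, against 3.54 and 3.68 without Dox (6.54 ± 0.11, adjusted p = 4.56e-07), and the difference between the days was -6.39 ± 0.15, adjusted p = 4.17e-06. Mesp1 had 9.40 and 9.27 with Dox, against 1.17 and 1.11 without Dox at day 4 (8.20 ± 0.14, adjusted p = 4.56e-07). Its difference between the days was -7.79 ± 0.20, adjusted p = 4.66e-06. Neither Mesp1 value without Dox at day 4 was above background, so both fitted changes depend on the floor.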

How the data were processed

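Total RNA of embryoid bodies was labelled with Cy5 and hybridised to Toray single-colour arrays, per the labels. The authors deposited scanner tables with a spot median intensity, combined over 3 scanner gains, per the file headers, and a table of processed intensities, whose columns correlated with the scanner values at 1, have medians of 25 and were used as an alternative. No genome build is given in the sources used here.

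From each spot median the mean of the blank spots was subtracted. Arrays were quantile normalized, floored at 2.06 (2 blank SDs) and put on the log2 scale. Probes above the blank mean plus 2 SD on at least 2 arrays were tested, and spots of 1 probe were averaged. limma 3.58.1 in R 4.3.3 was fitted to all 8 arrays (4 residual and 2.70 prior degrees of freedom, so the 4 groups share an estimate of the spread), with 2-sided tests and Benjamini-Hochberg adjustment at 0.05 over all 21670 probes, and the difference between the days as a contrast. The fit was tested on simulated data with 100 changed probes at each of 2 sizes. It recovered 72% of changes of 1 log2 unit and 99% of changes of 2 log2 units. It also called 17 unchanged probes. A gene that did not pass may therefore still have changed. The number of arrays limits the precision.

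Probe symbols come from the platform annotation, updated through RefSeq: 16631 gene probes have 1 symbol and 6842 none, including 592 of the day-2 calls. For genes with several probes the brightest stands. Named genes are the 25 largest rises and falls among called genes without overlap and above background in the brighter group, list members with the largest called changes, and members named for their role. The members and lists were chosen with earlier results of these data known. Alternatives covered background, normalization, floor, filter, moderation, samples, replicate block and each array left out, with the normalization of all arrays kept and a lone array assumed to vary like the other groups. The deposited values of the 2 day-4 groups enter the fit and the day comparison.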

Additional observations from a re-analysis of the deposited data

Results flagged for a closer look

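The effect of Dox differed between the days by a test of the difference itself for 4796 probes in the limma fit, and 42 of the 50 largest named changes at day 2 are among them. Values in parentheses are the log2 effect at day 2 minus that at day 4, from 2 arrays in each of the 4 groups.

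Among genes that rose on both days, the rise was larger at day 2 for Bmp4 (1.12), Ly6c1 (1.36), Tfap2c (1.60), 3830417A13Rik (1.001), Gjb5 (1.47), S100a6 (0.70), Id1 (2.55), Dppa3 (1.42), Nmi (1.05), H19 (1.03), BC053393 (1.49), Cited1 (2.19), Mylpf (1.02) and Elf5 (1.97), and it was larger at day 4 for Irgm1 (-1.23). Id3 and Jam2 rose at day 2 and fell at day 4, with differences of 5.98 and 5.74. Cpsf4l (3.59), Cd37 (4.02) and Nanos3 (2.34) rose at day 2 and did not pass the threshold at day 4. Cd37 is at the floor on every day-4 array, so no day-4 effect could be measured for it. Its difference restates the day-2 change.

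Among genes that fell on both days, the fall was larger at day 2 for Spink1 (-3.97), Ttr (-3.72), Loxl2 (-1.68) and Slc2a1 (-1.15). The sign turned, with a fall at day 2 and a rise at day 4, for Adm (-9.39), Pyy (-4.03), Ddit3 (-3.83), Bhlhe40 (-5.70), Catsperz (-5.20), Egln3 (-6.09), Pgm2 (-4.74), Pdgfra (-4.69) and Smc1b (-3.61). These include the low-oxygen genes Adm, Bhlhe40, Egln3 and Pgm2 and the receptor gene Pdgfra. For Izumo1r (-3.20), Apoa1 (-3.15), Stra8 (-2.68), Tfec (-2.46), Csn3 (-2.39), A2m (-2.99), Hoxa5 (-2.32), 1700003F12Rik (-1.65) and Cox8c (-2.20) the fall was found at day 2 and the change at day 4 did not pass. Izumo1r, Apoa1, Tfec and Cox8c are at the floor on every day-4 array, so no day-4 effect could be measured for them. Their differences restate the day-2 change. For genes at or near the floor in a group (among them Adm, Ttr, Apoa1, Tfec, Cd37, BC053393, Izumo1r, Pyy, Pdgfra, Cox8c and 3830417A13Rik), the fitted difference depends on the floor.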

How the results depend on the processing

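The calls depended most on whether the scanner's second median was subtracted as background. That column correlated with the spot signal at 0.984 to 0.998 on the log scale. It lay above the mean plus 2 SD of the blank spots for 59.8% to 82.7% of the gene probes of an array. With the scanner's second median as background (normexp, offset 50), limma called 2 probes at day 2, 1 of them changed at least 2-fold, and 0 probes for the difference between the days, where 528 passed an unadjusted p of 0.05; the other settings called between 1097 and 3291 probes at day 2 and between 2656 and 5602 for the difference. Of the 110 genes named above as called at day 2, 1 kept its call under it, 75 kept their direction without a call and 34 changed sign, none of the 34 with a call. Those higher with Dox in the report had log2 changes there of Rhox6 (-0.26), Ly6c1 (-0.18), Nmi (-0.034), Mylpf (-0.062), Cd37 (-0.017), BC053393 (-0.00068), Hspb1 (-0.045), Dll3 (-0.030) and Nid2 (-0.46), and those lower with Dox had B2m (0.17), Tpi1 (0.12), Aldoa (0.12), Pgm2 (0.32), P4ha2 (0.011), Vldlr (0.073), Ttr (0.031), Clic6 (0.0053), Gata6 (0.011), Fabp7 (0.010), Pax6 (0.036), Ptn (0.053), Camk2n1 (0.0023), Pdgfra (0.0072), Hoxa5 (0.0072), Dll1 (0.040), Hes1 (0.017), Crb3 (0.012), Cldn7 (0.12), Mmp2 (0.10), Sfrp2 (0.011), Izumo1r (0.0089), Catsperz (0.15), A2m (0.015) and Pmaip1 (0.023); none of these values is a call. With no background correction 152 probes were called and changed at least 2-fold, since the constant offset of an array compresses folds, and all 110 genes kept their calls.

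Without normalization between arrays 1097 probes were called at day 2 and 2656 for the difference, and 5 of the 110 genes lost their call (B2m, Hk1, Sox11, Cldn7 and Actb). The 4 day-2 arrays alone, with fewer arrays to estimate the spread, gave 1346 calls, and 8 genes lost theirs (Msx2, B2m, Hspa8, Dab2, Hes1, Cldn7, Cox8c and Actb). Leaving out 1 array gave between 1149 and 2267 calls at day 2, the lowest without DoxOn_day2 replicate 2, and between 2 and 5 genes lost their call without a day-2 array and 0 without a day-4 array. On the deposited values limma called 2325 probes, and the 95 named genes with a value there kept direction and call, as did all 110 under scaling to the 75th percentile, the other dim-probe filters that tested them and both other floors. With the floor at 4 blank SDs the fitted fold of 9 of the 110 genes moved by over 1.5 times (Cd37, 3830417A13Rik, BC053393, Ttr, Apoa1, Pyy, Pdgfra, Izumo1r and Tfec), and with it at 1 blank SD that of 4 (Cd37, BC053393, Apoa1 and Tfec).

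Replicate numbers did not pair the samples: deviations of same-numbered arrays correlated at -0.20 between the day-2 groups and at -0.27 to 0.23 between the other pairs of groups. The fit with the replicate number as a block gave 2009 calls at day 2 and the crossed block, chosen after seeing the data, 2790, and all 110 genes kept their calls in both. Slide or scan date as a block was not run, since the headers used give neither. The number of arrays and the signal over the blanks limit the precision, and values at the floor have no order.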
